A study of Mus musculus with 9 samples.

Results

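The genes described are the G1 cyclins and their kinases: the D-type cyclins Ccnd1, Ccnd2 and Ccnd3, the E-type cyclins Ccne1 and Ccne2, the cyclin-dependent kinases Cdk2, Cdk4 and Cdk6, the inhibitor Cdkn1b and the retinoblastoma gene Rb1. They were chosen by name, with earlier results of these data known. For each, the probe set annotated to that gene alone was read, the brighter where there were several. Of the 10 genes listed, 9 have such a probe set, out of 22180 genes with one on the array. Ccne2 shares its only probe set with a second gene, and no value is given for it.

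Mouse embryonic stem cells of the NG4 line, a 129/Sv line whose Nanog locus reports through green fluorescent protein, were cultured on gelatin with LIF. Lentiviruses of the pLKO.1 type delivered a hairpin against Phf5a (shPhf5a, 3 arrays), a hairpin against Paf1 (shPaf1, 3 arrays) or a control hairpin (shControl, 3 arrays), and all 9 samples went through puromycin selection at 2 μg/mL for 72 h. Phf5a is a subunit of the SF3b part of the spliceosome and Paf1 a subunit of the Paf1 complex, which accompanies elongating RNA polymerase II. Total RNA was hybridised to Affymetrix whole-transcript arrays, each group has 1 hairpin and 1 cell line, and the labels do not say whether replicates are separate cultures, so the spread between arrays may be technical.

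In the textbook scheme of G1, D-type cyclins bind Cdk4 or Cdk6 and E-type cyclins bind Cdk2, and both kinds of complex phosphorylate the retinoblastoma protein, which then releases E2F factors to switch on S phase genes. Cdkn1b encodes p27, which binds cyclin-Cdk2 complexes and blocks them. Mouse embryonic stem cells are known for a short G1 phase, abundant cyclin E and Cdk2 activity through the whole cycle, and little p27, and they lengthen G1 as they differentiate.

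In both knockdowns the measured cyclins, Cdk2, Cdk6 and the inhibitor Cdkn1b were lower and Rb1 was higher, while Cdk4 passed the test in shPhf5a and not in shPaf1. In shPhf5a arrays 8 of the 9 measured genes fell and Rb1 rose, with Ccne1 at 44.2% and Cdkn1b at 46.8% of the shControl level and Rb1 at 2.73 times that level. In shPaf1 arrays 7 fell, 1 rose and Cdk4 did not pass the test, with Cdk6 at 42.0% of the shControl level and Rb1 at 1.73 times it. The fall of Ccnd3 in shPaf1 (limma adjusted p = 0.0454) was lost in 8 of 18 alternative fits. With 1 array left out, 5 to 7 genes were called lower in shPaf1. Of all genes tested, 20.7% were called lower and 16.7% higher in shPhf5a, and 17.8% lower and 18.0% higher in shPaf1, at a Benjamini-Hochberg adjusted p under 0.05 in a limma fit over all genes. Among genes whose highest group mean exceeded the median level of 6.68 log2 units, as all 9 measured genes do, those shares were 34.5% lower and 27.2% higher in shPhf5a, and 30.1% lower and 29.5% higher in shPaf1. The median difference from shControl over the 9 genes was -0.70 log2 units in shPhf5a, against -0.03 over all genes. In shPaf1 it was -0.51, against -0.01 over all genes. Both comparisons use the same shControl arrays. For all 9 genes the 3 shPhf5a arrays lay on 1 side of the 3 shControl arrays, 8 below and 1 above, whereas 25.9% of all genes lay wholly below and 19.9% wholly above. The same held for the shPaf1 arrays, with 25.0% of all genes wholly below the controls and 23.2% wholly above.

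**Figure D1:**
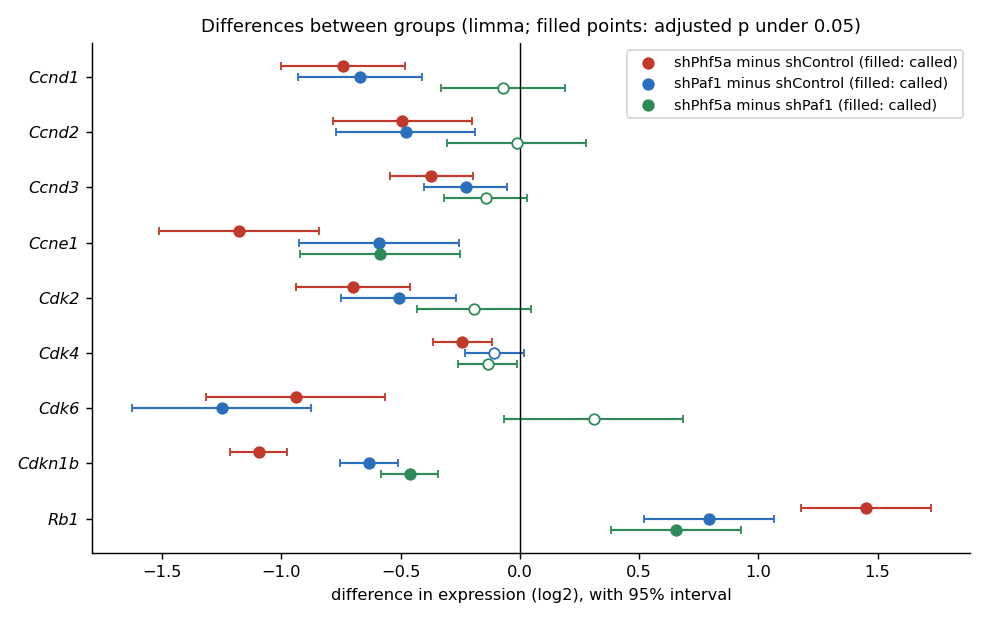
Differences in log2 expression for the 9 measured genes, with 95% intervals from the limma fit. Each gene has 3 points, shPhf5a minus shControl (red), shPaf1 minus shControl (blue) and shPhf5a minus shPaf1 (green), and filled points had adjusted p under 0.05. All red and blue points lie left of 0 for the cyclins, kinases and Cdkn1b and right of 0 for Rb1, and the green points are filled for Ccne1, Cdkn1b and Rb1.

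The shPhf5a replicate 2 array lay nearer to the controls than its partners, with a root mean square difference from the shControl mean of 0.32 log2 units over all genes, against 0.46 and 0.44 in replicates 1 and 3. Phf5a itself was at 34.4%, 55.9% and 39.6% of the shControl mean in shPhf5a replicates 1, 2 and 3. For all 9 measured genes replicate 2 was the shPhf5a array closest to the shControl mean. The part of the remaining Phf5a in that pattern was not tested. Without replicate 2 the same 8 genes fell and Rb1 rose in shPhf5a. Paf1 was at 37.7%, 38.9% and 38.0% of the shControl mean in the shPaf1 arrays. Each target was also lower under the other hairpin. Phf5a was at 64.3%, 62.0% and 76.2% of the shControl mean in the shPaf1 arrays (adjusted p = 0.0183), and at a lower level in shPhf5a than in shPaf1 (-0.67 log2 units, SE 0.16, adjusted p = 0.0111). Paf1 was at 76.5%, 95.7% and 81.8% in the shPhf5a arrays (adjusted p = 0.0267). The part of these falls in the changes that the knockdowns have in common was not tested. No shPaf1 array was nearest to the controls for more than 3 of the 9 genes. In RNA of whole cultures a smaller share of cells in one state and less RNA per cell cannot be told apart.

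**Figure D2:**
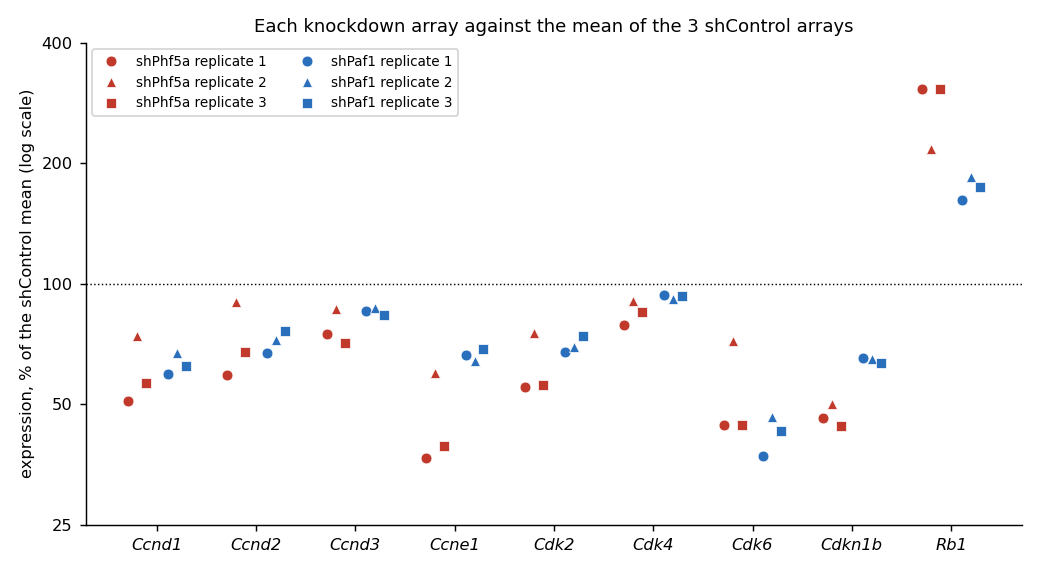
Expression of the 9 measured genes on each knockdown array as a percentage of the mean of the 3 shControl arrays, on a log scale. Red symbols are shPhf5a and blue symbols shPaf1, with circle, triangle and square for replicates 1, 2 and 3. Of the red symbols the triangle (replicate 2) is nearest to 100% for every gene, for example 59.9% for Ccne1 against 36.8% and 39.3% in the other shPhf5a arrays.

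Promoter sequence is shown for Ccne1, Cdk2, Cdk6 and Cdkn1b, the genes with an entry that fell together by more than 0.5 log2 units in both knockdowns. RefSeq promoter windows (GRCm38.p6, from 250 bases before to 50 after the start site) were found for 6 of the 10 genes, Ccnd3, Ccne1, Cdk2, Cdk4, Cdk6 and Cdkn1b, with 7 windows in all because Ccnd3 has 2. Ccnd1, Ccnd2, Ccne2 and Rb1 had no entry. Both strands were searched for the E2F motif as TTTCCCGC, TTTCGCGC, TTTGCCGC or TTTGGCGC, and for the GC box GGGCGG, the Sp1 site common in promoters without a TATA box, which was added after the data had been seen. Matches are in capitals, each sequence runs 5′ to 3′ along the gene's strand, and no E2F match overlapped a GC box.
Ccne1, chr7:38107441-38107740, minus strand: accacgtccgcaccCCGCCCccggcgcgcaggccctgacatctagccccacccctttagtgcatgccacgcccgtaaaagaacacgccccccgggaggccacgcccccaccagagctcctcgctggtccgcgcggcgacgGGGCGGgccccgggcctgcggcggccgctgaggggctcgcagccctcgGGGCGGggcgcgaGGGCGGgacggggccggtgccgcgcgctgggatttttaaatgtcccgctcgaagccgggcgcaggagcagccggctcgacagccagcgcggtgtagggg
Cdk2, chr10:128705002-128705301, minus strand: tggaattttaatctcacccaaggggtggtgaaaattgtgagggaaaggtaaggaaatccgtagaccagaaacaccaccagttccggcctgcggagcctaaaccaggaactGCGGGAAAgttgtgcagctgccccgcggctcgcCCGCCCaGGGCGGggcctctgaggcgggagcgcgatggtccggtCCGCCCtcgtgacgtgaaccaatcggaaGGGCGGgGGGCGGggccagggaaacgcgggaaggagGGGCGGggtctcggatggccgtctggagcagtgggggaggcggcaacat
Cdk6, chr5:3343643-3343942, plus strand: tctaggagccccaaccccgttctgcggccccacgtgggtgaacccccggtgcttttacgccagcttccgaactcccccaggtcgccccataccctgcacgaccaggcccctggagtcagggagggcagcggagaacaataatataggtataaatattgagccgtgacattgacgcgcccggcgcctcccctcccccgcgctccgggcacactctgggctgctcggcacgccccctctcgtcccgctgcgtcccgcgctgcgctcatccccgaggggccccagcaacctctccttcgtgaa
Cdkn1b, chr6:134920151-134920450, plus strand: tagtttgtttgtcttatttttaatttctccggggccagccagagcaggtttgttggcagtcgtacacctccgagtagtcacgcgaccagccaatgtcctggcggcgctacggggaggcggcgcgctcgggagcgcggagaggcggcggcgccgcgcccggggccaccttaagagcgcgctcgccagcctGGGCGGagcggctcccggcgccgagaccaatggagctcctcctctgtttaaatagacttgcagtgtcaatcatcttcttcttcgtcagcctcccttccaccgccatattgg

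An E2F match was found in 1 of the 7 windows, that of Cdk2, where the reverse complement of TTTCCCGC spans positions -140 to -133 relative to the start site. Of 32851 mouse promoter windows of 300 bases, 2.26% hold such a match. Only the exact words given were searched, so a window without a match may still hold a variant E2F site. GC boxes were found in 6 of the 7 windows, all but that of Cdk6, with 6 in the Cdk2 window, 4 in the Ccne1 window and 1 in the Cdkn1b window, whereas 35.7% of all windows hold at least 1. The windows printed are rich in G and C, at 76.0% for Ccne1, 64.7% for Cdk2, 66.7% for Cdk6 and 62.0% for Cdkn1b, against a median of 52.7% over all windows. Of the windows not printed, that of Cdk4 holds 3 GC boxes and each of the 2 windows of Ccnd3 holds 2. The part of either motif in the changes was not tested.

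The D-type cyclins carry mitogen signals to Cdk4 and Cdk6. Ccnd1 had 9.91, 10.45 and 10.06 log2 units in shPhf5a, 10.13, 10.31 and 10.20 in shPaf1, and 10.89, 10.89 and 10.87 in shControl arrays. Every knockdown array lay below every control array. Ccnd1 fell by 0.74 log2 units in shPhf5a (SE 0.12, n = 3 arrays per group, limma adjusted p = 0.000708) and by 0.67 in shPaf1 (adjusted p = 0.00125). Between the knockdowns the difference was -0.07 (95% interval -0.33 to 0.19, adjusted p = 0.729), and their arrays overlapped. Without shPhf5a replicate 2 the fall in shPhf5a was 0.90 and the difference between the knockdowns passed (-0.23, adjusted p = 0.0273).

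Ccnd2, the cyclin D that mouse ovarian granulosa cells need to divide, had 8.59, 9.20 and 8.78 log2 units in shPhf5a, 8.77, 8.88 and 8.96 in shPaf1, and 9.43, 9.30 and 9.31 in shControl arrays. The groups did not overlap with the controls, although shPhf5a replicate 2 came just under the lowest of them. Ccnd2 fell by 0.49 in shPhf5a (SE 0.13, adjusted p = 0.0133) and by 0.48 in shPaf1 (SE 0.13, adjusted p = 0.0155). Both calls passed in the reported fit, but each was lost in 2 of 18 alternatives. The first was lost without shControl replicate 1 (adjusted p = 0.0526) or shPhf5a replicate 3 (adjusted p = 0.0504), and the second without shControl replicate 1 (adjusted p = 0.0608) or shPaf1 replicate 1 (adjusted p = 0.0617). Without shPhf5a replicate 2, whose spread enters the common error, adjusted p was 0.000137 in shPhf5a and 0.000511 in shPaf1. The knockdowns differed by -0.01 (95% interval -0.30 to 0.28).

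Ccnd3, the cyclin D that immature mouse T cells need to expand, had the smallest differences from shControl of the D-type cyclins. It had 10.28, 10.49 and 10.20 log2 units in shPhf5a, 10.48, 10.50 and 10.44 in shPaf1, and 10.74, 10.76 and 10.59 in shControl arrays. The highest shPhf5a and shPaf1 arrays lay just under the lowest control, replicate 3. Ccnd3 fell by 0.37 in shPhf5a (SE 0.08, adjusted p = 0.00376), and by 0.23 in shPaf1 (SE 0.08, adjusted p = 0.0454). The shPaf1 call was lost in 8 of 18 alternatives, among them quantile normalization (adjusted p = 0.0674), all probe sets (adjusted p = 0.0567), and leaving out shControl replicate 1 or 2, shPhf5a replicate 1, or any 1 shPaf1 array (adjusted p from 0.0517 to 0.146). The difference between the knockdowns was -0.14 (95% interval -0.32 to 0.03).

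Ccne1 encodes cyclin E1, the partner of Cdk2. It had 10.09, 10.79 and 10.19 log2 units in shPhf5a, 10.94, 10.89 and 10.99 in shPaf1, and 11.54, 11.54 and 11.53 in shControl arrays. The 3 groups did not overlap, and shPhf5a was lowest. Ccne1 fell by 1.18 in shPhf5a (SE 0.15, adjusted p = 0.000212, a 2.26-fold fall) and by 0.59 in shPaf1 (SE 0.15, adjusted p = 0.0108, 1.51-fold). The difference of -0.58 between the knockdowns passed (SE 0.15, adjusted p = 0.0148). That call was lost with only the 6 arrays compared (adjusted p = 0.0524), without shPhf5a replicate 3 (adjusted p = 0.0623) and without shPaf1 replicate 3 (adjusted p = 0.0524), and without shPhf5a replicate 2 the difference was -0.80 (adjusted p = 8.97e-06).

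Its kinase followed the same order of means. Cdk2 had 9.52, 9.96 and 9.53 log2 units in shPhf5a, 9.80, 9.84 and 9.94 in shPaf1, and 10.38, 10.36 and 10.37 in shControl arrays. It fell by 0.70 in shPhf5a (SE 0.11, adjusted p = 0.000619) and by 0.51 in shPaf1 (SE 0.11, adjusted p = 0.004). The knockdown arrays overlapped each other, shPhf5a replicate 2 being above every shPaf1 array. The difference between them was -0.19 (95% interval -0.43 to 0.05, adjusted p = 0.237), and it passed when shPhf5a replicate 2 was left out (-0.34, adjusted p = 0.00109) or when arrays were weighted (-0.28, adjusted p = 0.0177).

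The D-type cyclins act through Cdk6 and Cdk4. Cdk6 had 8.78, 9.48 and 8.79 log2 units in shPhf5a, 8.53, 8.85 and 8.74 in shPaf1, and 9.97, 9.97 and 9.94 in shControl arrays. It fell by 0.94 in shPhf5a (SE 0.17, adjusted p = 0.00149, 1.92-fold) and by 1.25 in shPaf1 (SE 0.17, adjusted p = 0.000258, 2.38-fold). Of the 9 genes Cdk6 alone had a lower mean in shPaf1 than in shPhf5a among those that fell. That difference of 0.31 did not pass (95% interval -0.06 to 0.69, adjusted p = 0.22), and it was 0.08 without shPhf5a replicate 2.

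Cdk4 had 12.47, 12.67 and 12.58 log2 units in shPhf5a, 12.73, 12.69 and 12.72 in shPaf1, and 12.82, 12.83 and 12.80 in shControl arrays. The groups did not overlap, but the steps between them were small. Cdk4 fell by 0.24 in shPhf5a (SE 0.06, adjusted p = 0.00626), to 84.6% of the shControl level. In shPaf1 the difference was -0.11 (95% interval -0.23 to 0.02, adjusted p = 0.181), a level of 92.9%. The knockdowns differed by -0.13 (adjusted p = 0.103), a difference that passed after quantile normalization (adjusted p = 0.0488), when arrays were weighted (adjusted p = 0.0452) or when shPhf5a replicate 2 was left out (adjusted p = 0.0208).

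**Figure D3:**
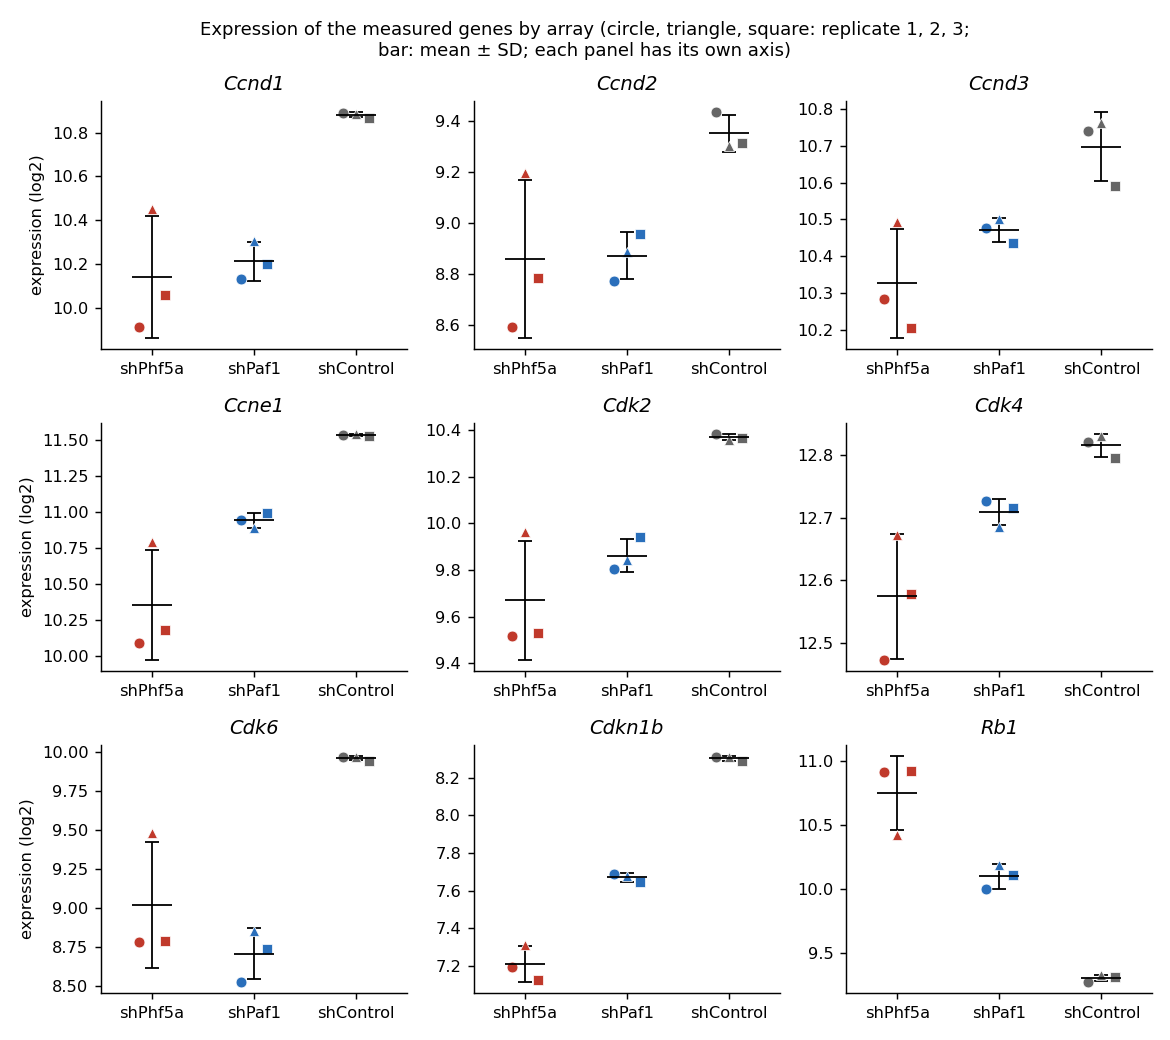
Log2 expression of each measured gene on all 9 arrays, with 1 panel per gene, its own vertical axis, and shPhf5a, shPaf1 and shControl from left to right. Circle, triangle and square are replicates 1, 2 and 3, and bars give the mean and SD. Every knockdown array is below every control array for the cyclins, kinases and Cdkn1b and above them for Rb1.

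Cdkn1b, the inhibitor of cyclin-Cdk2 complexes, fell as well. It had 7.19, 7.31 and 7.12 log2 units in shPhf5a, 7.69, 7.68 and 7.65 in shPaf1, and 8.31, 8.31 and 8.29 in shControl arrays. The 3 groups were far apart relative to their spread (SD 0.09 in shPhf5a, 0.02 in shPaf1 and 0.01 in shControl). Cdkn1b fell by 1.09 in shPhf5a (SE 0.05, adjusted p = 2.07e-06, 2.14-fold) and by 0.63 in shPaf1 (SE 0.05, adjusted p = 1.57e-05, 1.55-fold). The difference of -0.46 between the knockdowns passed in the reported fit (adjusted p = 0.00018) and in all 18 alternatives (adjusted p from 2.49e-05 to 0.00224).

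Rb1, whose protein holds E2F factors inactive until the kinases phosphorylate it, was the gene that rose. Its values were 10.91, 10.42 and 10.92 log2 units in shPhf5a, 9.99, 10.19 and 10.10 in shPaf1, and 9.27, 9.32 and 9.31 in shControl arrays. The 3 groups did not overlap, and the lowest shPhf5a array was replicate 2. Rb1 rose by 1.45 in shPhf5a (SE 0.12, adjusted p = 2.18e-05) and by 0.79 in shPaf1 (SE 0.12, adjusted p = 0.000578). The difference of 0.66 between the knockdowns also passed (SE 0.12, adjusted p = 0.00269), and did so in all 18 alternatives (adjusted p from 1.71e-05 to 0.0159).

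Rb1 has a second, dimmer probe set of its own. It read 6.66, 6.27 and 6.70 log2 units in shPhf5a, 5.84, 6.16 and 5.91 in shPaf1, and 5.20, 5.61 and 5.52 in shControl arrays. The order of the group means was that of the bright probe set. Rises were 1.10 in shPhf5a (SE 0.15, adjusted p = 0.000504 over all probe sets) and 0.53 in shPaf1 (adjusted p = 0.0219), with a difference of 0.57 between the knockdowns (adjusted p = 0.0201). The same RNA gave both readings, which are not independent samples, and 2 further probe sets that are annotated to Rb1 and a second gene were not read.

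In the direct comparison, 2 of the 9 genes were lower in shPhf5a than in shPaf1 (Ccne1 and Cdkn1b), Rb1 was higher, and 6 did not pass. Over all genes 16.3% were lower and 12.7% higher in shPhf5a than in shPaf1. Among genes above the median level those shares were 27.3% lower and 20.8% higher. The 2 lower and 1 higher of the 9 are no larger than these last shares. With shPhf5a replicate 2 left out 6 of the 9 genes were lower, and with replicate 3 of either knockdown left out 1 was. The order of the means was shPhf5a, shPaf1, shControl from low to high for Ccnd1, Ccnd2, Ccnd3, Ccne1, Cdk2, Cdk4 and Cdkn1b, was shPaf1, shPhf5a, shControl for Cdk6, and was the reverse of the first for Rb1. Neighbours in that order were separated by a test only where given above.

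**Figure D4:**
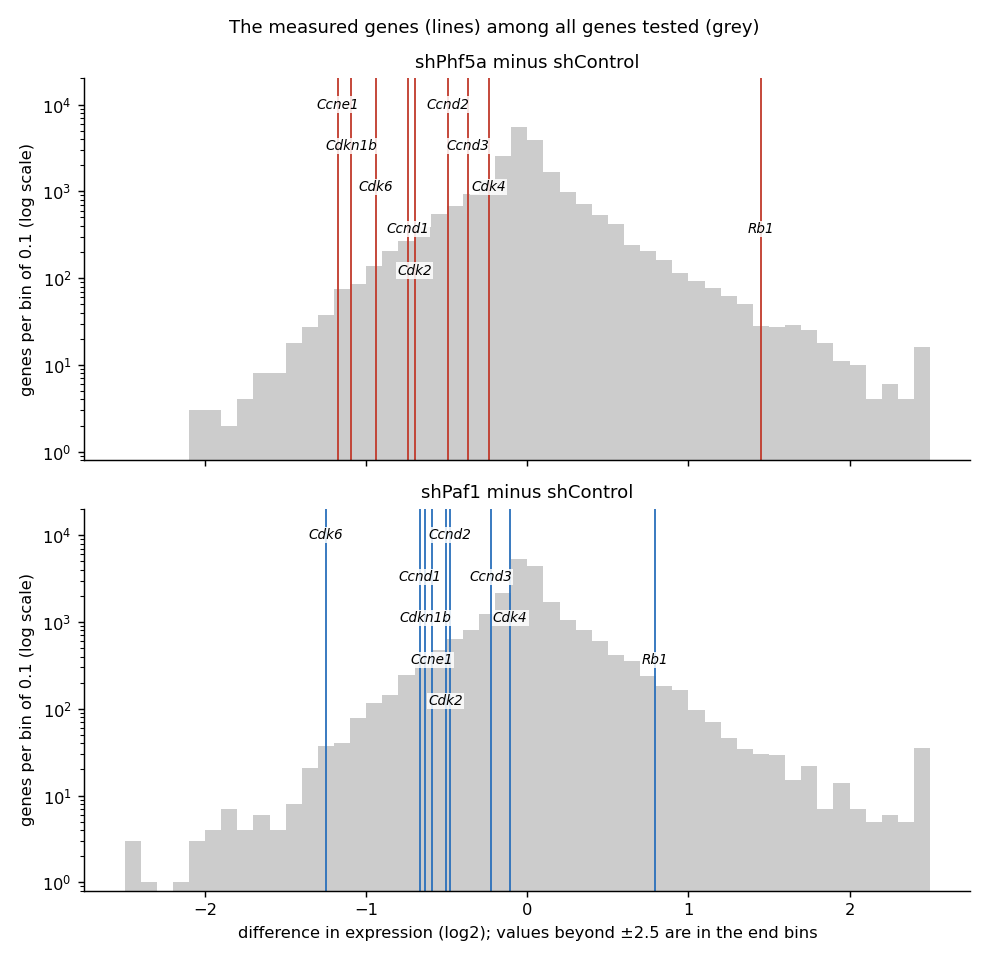
Distribution of log2 differences of all 22180 genes (grey, log scale of gene counts), with the 9 measured genes as lines, for shPhf5a minus shControl (top) and shPaf1 minus shControl (bottom). Ccne1, Cdkn1b and Cdk6 lie in the left tail and Rb1 in the right tail of the upper panel, and Cdk4 lies closest to 0 in both. The end bins hold all more extreme genes.

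Within the distribution over all genes, 0.53% of genes had a lower difference than Ccne1 and 0.85% a lower one than Cdkn1b in shPhf5a, and 0.37% a lower one than Cdk6 in shPaf1. Rb1 stood above 99.25% of genes in shPhf5a and above 96.47% in shPaf1. Cdk4 was in the body of the distribution, with 18.72% of genes below it in shPhf5a and 28.02% in shPaf1.

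Genes whose profile over the 6 knockdown arrays was most like that of a changed member were found by the root mean square difference of their deviations from their own shControl means, among 10990 genes above the median level. Closest to Ccne1 were Stoml2 (0.05 log2 units), Rcor2 (0.07) and Acy1 (0.07). Closest to Rb1 were Tmtc3 (0.09), Lama5 (0.11) and Ddr2 (0.13). Cdk6 had Gfpt2 (0.09), Hsf2bp (0.15) and Lyplal1 (0.17) nearest. Stoml2, for example, was at -1.13 in shPhf5a and -0.60 in shPaf1.

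The other genes of the G1 machinery were read from lists set by function. Their counts are to be read against the shares of all genes called, which were 16.7% higher and 20.7% lower in shPhf5a and 18.0% higher and 17.8% lower in shPaf1, and against the larger shares of genes above the median level given above. Among 6 CDK inhibitors other than Cdkn1b, 2 rose and 1 fell in shPhf5a, and 3 rose and 1 fell in shPaf1. The median difference from shControl over the list was 0.009 in shPhf5a, against -0.03 over all genes, and 0.24 in shPaf1, against -0.01 over all genes. The single fall of 6 in each knockdown is near the share of all genes called lower. Cdkn1a, the p53-induced inhibitor p21 and a relative of Cdkn1b, had 11.88, 11.53 and 11.63 log2 units in shPhf5a, 11.31, 11.51 and 11.38 in shPaf1, and 10.38, 10.32 and 10.39 in shControl arrays. It rose by 1.32 in shPhf5a (SE 0.09, adjusted p = 6.91e-06) and by 1.04 in shPaf1 (SE 0.09, adjusted p = 1.63e-05). Cdkn1a and Cdkn1b stood on opposite sides of the controls on every knockdown array.

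Cdkn1c, which encodes p57, the other inhibitor of that family, was at 0.03 in shPhf5a (95% interval -0.07 to 0.14) and rose by 0.47 in shPaf1 (SE 0.05, adjusted p = 4.65e-05). The difference of -0.43 between the knockdowns passed (adjusted p = 0.000126). Cdkn2b, encoding the Cdk4 and Cdk6 inhibitor p15, rose by 0.54 in shPhf5a (SE 0.08) and by 0.70 in shPaf1 (SE 0.08). Cdkn2d, encoding p19 of the same family, fell by 0.38 in shPhf5a and by 0.23 in shPaf1.

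Rb1 has 2 relatives, Rbl1 (p107) and Rbl2 (p130). Rbl2 had 9.25, 9.21 and 9.50 log2 units in shPhf5a, 8.62, 8.77 and 8.66 in shPaf1, and 8.57, 8.60 and 8.36 in shControl arrays. It rose by 0.81 in shPhf5a (SE 0.09, adjusted p = 0.000109), was at 0.18 in shPaf1 (95% interval -0.03 to 0.38), and differed between the knockdowns by 0.63 (adjusted p = 0.000631). Rbl1 was at 0.15 in shPhf5a (adjusted p = 0.0987) and 0.07 in shPaf1 (adjusted p = 0.496), and neither passed.

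Over the whole list of pocket proteins, E2F and DP factors, 2 of 12 rose and 6 fell in shPhf5a, and 2 rose and 3 fell in shPaf1. The 2 rises of 12 in each knockdown are near the 16.7% and 18.0% of all genes called higher. Among genes above the median level, where all 12 lie, 27.2% were called higher in shPhf5a and 29.5% in shPaf1. Those called lower were 34.5% in shPhf5a and 30.1% in shPaf1. The 3 falls of 12 in shPaf1 are near that 30.1%. The list's median difference was -0.20 in shPhf5a and -0.01 in shPaf1, against -0.03 and -0.01 over all genes. E2f8, an E2F repressor, fell by 0.85 in shPhf5a (SE 0.13, adjusted p = 0.000519) and was at -0.06 in shPaf1. E2f4, the E2F that pocket proteins carry in resting cells, fell by 0.62 in shPhf5a (SE 0.07, adjusted p = 0.000133) and was at 0.06 in shPaf1. Tfdp1, the DP partner of the E2F factors, fell by 0.81 in shPhf5a and by 0.41 in shPaf1. The activator E2f1 was at -0.12 in shPhf5a (adjusted p = 0.129) and rose by 0.40 in shPaf1 (SE 0.06, adjusted p = 0.000366). The differences between the knockdowns passed for E2f8 (-0.79), E2f4 (-0.68) and E2f1 (-0.52), with adjusted p of 0.0011, 0.000115 and 0.000125.

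**Figure D5:**
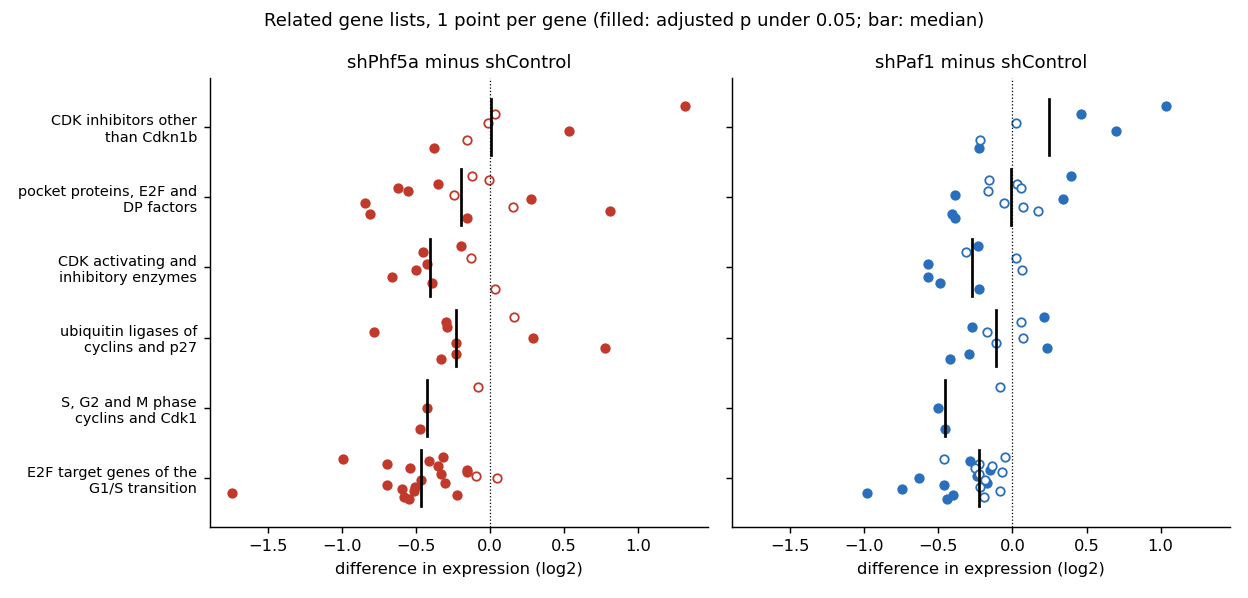
Log2 differences from shControl for the genes of 6 related lists, with 1 point per gene, shPhf5a on the left and shPaf1 on the right. Filled points had adjusted p under 0.05 and black bars are list medians, which for E2F target genes were -0.47 in shPhf5a and -0.23 in shPaf1. Cdkn1a is the point farthest right in both panels and Tk1 the point farthest left.

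E2F target genes of the G1/S transition, which make the DNA replication apparatus and its nucleotides, were mostly called lower in shPhf5a and partly in shPaf1. In shPhf5a 19 of 21 measured targets fell and the rest did not pass, beside the 20.7% of all genes called lower. Among genes above the median level, where all 21 lie, 34.5% were called lower in shPhf5a. Tk1, thymidine kinase, had 8.44, 9.06 and 8.42 log2 units in shPhf5a, 9.43, 9.41 and 9.37 in shPaf1, and 10.45, 10.35 and 10.34 in shControl arrays. It fell by 1.74 in shPhf5a (SE 0.14, adjusted p = 2.08e-05) and by 0.98 in shPaf1 (SE 0.14, adjusted p = 0.000462), and differed between them by -0.76 (adjusted p = 0.0031). Cdc6, which loads the replicative helicase, fell by 0.99 in shPhf5a (SE 0.18, adjusted p = 0.00154).

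Of all genes 17.8% were called lower in shPaf1, and of genes above the median level 30.1%. In shPaf1 10 of the 21 targets fell and the rest did not pass. That count was 18 without shPhf5a replicate 2, whose spread enters the common error, and 18 in a fit of only the shPaf1 and shControl arrays. After quantile normalization it was 6 of 21, near the 30.1% of the reported fit. Rrm2, a subunit of ribonucleotide reductase, fell by 0.75 in shPaf1 (SE 0.08, adjusted p = 9.01e-05) and Msh6, a mismatch repair gene, by 0.63 (SE 0.07, adjusted p = 6.31e-05). Msh6 was at 0.05 in shPhf5a, and the difference between the knockdowns passed (0.68, adjusted p = 7.27e-05).

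The next list holds enzymes that activate or inhibit CDKs and partner proteins of kinases. Of its 8 measured genes, 6 fell in shPhf5a and 5 fell in shPaf1, and the rest did not pass, beside 20.7% and 17.8% of all genes called lower. Among genes above the median level those shares were 34.5% and 30.1%. The list mixes activators with the inhibitory kinase Wee1, which was at 0.04 in shPhf5a (adjusted p = 0.735) and fell by 0.23 in shPaf1 (adjusted p = 0.0228). Cdc25b, an activating phosphatase, was at -0.13 in shPhf5a (adjusted p = 0.16) and 0.03 in shPaf1 (adjusted p = 0.81). Wee1 and Cdc25b are named after their values were seen. Cdk7, the CDK-activating kinase, fell by 0.66 in shPhf5a (SE 0.07, adjusted p = 7.91e-05) and by 0.57 in shPaf1 (SE 0.07, adjusted p = 0.000159). Its partner Mnat1 fell by 0.49 in shPaf1 (SE 0.06). Cdc25a, the phosphatase that activates Cdk2, fell by 0.46 in shPhf5a (SE 0.12, adjusted p = 0.0136).

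Ubiquitin ligases set how long cyclin E and p27 last as proteins. Of 9 measured genes of these ligases, 2 rose and 6 fell in shPhf5a, and 2 rose and 3 fell in shPaf1. In shPaf1 these counts are near the 29.5% called higher and 30.1% called lower among genes above the median level. In shPhf5a those shares were 27.2% higher and 34.5% lower. Fbxw7, the receptor that marks cyclin E for destruction, had 8.88, 8.80 and 9.04 log2 units in shPhf5a, 8.36, 8.36 and 8.37 in shPaf1, and 8.08, 8.20 and 8.13 in shControl arrays. It rose by 0.77 in shPhf5a (SE 0.07, adjusted p = 2.23e-05) and by 0.23 in shPaf1 (adjusted p = 0.0195), with a difference of 0.54 (adjusted p = 0.000221). Skp2, the receptor for p27, fell by 0.33 in shPhf5a (SE 0.08, adjusted p = 0.00646) and by 0.42 in shPaf1 (SE 0.08, adjusted p = 0.00163). The scaffold Cul1 fell by 0.78 in shPhf5a (SE 0.08, adjusted p = 5.29e-05).

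For later phases of the cycle 3 of 5 listed genes were measured, and 2 of the 3 fell in each knockdown. Of all genes 20.7% were called lower in shPhf5a and 17.8% in shPaf1. Above the median level, where all 3 lie, the shares were 34.5% and 30.1%. Ccna2, cyclin A2, was at -0.08 in both shPhf5a (95% interval -0.18 to 0.02) and shPaf1 (95% interval -0.18 to 0.01) and did not pass. Cdk1, the mitotic kinase, fell by 0.47 in shPhf5a (SE 0.07, adjusted p = 0.000725) and by 0.46 in shPaf1 (SE 0.07, adjusted p = 0.000839). Ccnb2, a mitotic cyclin, fell by 0.43 in shPhf5a and by 0.50 in shPaf1. Between the knockdowns the differences were 0.005 for Ccna2, -0.02 for Cdk1 and 0.08 for Ccnb2, and did not pass (adjusted p from 0.508 to 0.958). Mki67, which encodes the proliferation marker Ki-67 and is in none of the lists, went the other way and is named after its values were seen. It had 11.02, 10.90 and 11.01 log2 units in shPhf5a, 10.80, 10.86 and 10.93 in shPaf1, and 10.42, 10.36 and 10.52 in shControl arrays. Mki67 rose by 0.54 in shPhf5a (SE 0.06, adjusted p = 0.000104) and by 0.43 in shPaf1 (SE 0.06, adjusted p = 0.000346), with every knockdown array above every control array.

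Markers of the stem cell state and of other cell types were read in the same comparisons, where 16.7% of all genes were called higher and 20.7% lower in shPhf5a, and 18.0% higher and 17.8% lower in shPaf1. The pluripotency genes Pou5f1, Nanog and Sox2 were well above the median level on all 9 arrays. Of 8 pluripotency markers 6 fell in each knockdown, and their mean level per array ran from 9.86 to 10.11 log2 units in shPhf5a, 9.81 to 9.86 in shPaf1 and 10.32 to 10.38 in shControl. Of 10 trophectoderm markers 9 rose in shPhf5a, while 6 rose and 1 fell in shPaf1, with mean levels from 8.37 to 8.72 in shPhf5a, 8.13 to 8.23 in shPaf1 and 7.16 to 7.25 in shControl. Of 6 primitive endoderm markers 3 rose in each knockdown, with mean levels from 7.53 to 7.90 in shPhf5a, 7.43 to 7.48 in shPaf1 and 7.02 to 7.14 in shControl. Of 14 fibroblast markers 2 rose and 2 fell in shPhf5a and 6 rose in shPaf1, with mean levels from 6.52 to 6.61 in shPhf5a, 7.04 to 7.11 in shPaf1 and 6.61 to 6.65 in shControl. The fibroblast counts in shPhf5a, 2 of 14 each way, are no larger than the shares of all genes. In shPaf1 8 of the 14 did not pass, and the list's median difference was 0.14. Its largest rises there were of Acta2 (10.22 log2 units, against 8.24 in shControl) and Tagln (8.93 against 7.70). These genes had 7.44 and 7.07 in shPhf5a. An array value has no true 0, and no marker can be called absent from these values. The part of cells of these kinds in the changes of the cyclins and kinases was not tested.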

How the data were processed

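RNA of 9 samples was measured on Affymetrix whole-transcript arrays. The authors deposited log2 values for each probe set of each array, made from scanned arrays by steps not given in the sources used here. Their base is taken as 2 because they run from 4.35 to 13.7, and fold values would differ with another base. Array medians lay between 6.22 and 6.31. The number of arrays limits the precision, and no detection calls or scan batches were used.

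Of 33793 probe sets, 23521 carry 1 gene symbol in the platform annotation, 1814 several and 8458 none. The brightest probe set of each of 22180 genes was tested with limma 3.58.1 in R 4.3.3 (lmFit, eBayes, 1 mean per group over all 9 arrays, 3 contrasts), with Benjamini-Hochberg adjustment over all genes at 0.05; groups came from the titles. In a simulation of shPhf5a against shControl over 22180 genes the fit called 73.1% of genes changed by 0.5 log2 units, 98.5% of those changed by 1, 100% of those changed by 2, and 12 of 21980 unchanged genes. The simulation changed 67, 67 and 66 genes by these sizes and gave all groups of a gene the same spread. For the measured members the shPhf5a arrays spread more than the shControl arrays, so these rates need not hold for the data.

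All members were named. From each related list up to 4 called genes with the largest change could be named per comparison, besides Cdkn1a, Rbl1, Rbl2, E2f1, Ccna2, Cdk1, Phf5a and Paf1, and the 3 genes most alike to each of the 3 members that changed most, leaving out unnamed loci, receptor families and small RNAs by symbol. Nanog, Sox2 and Pou5f1 are named as label checks, and Mki67, Wee1 and Cdc25b after their values were seen. Members and lists were chosen with earlier results of these data known. Alternatives were other scalings, filters, probe set rules, variance models, array weights, fits of 6 arrays, a replicate block and leaving out each array.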

Additional observations from a re-analysis of the deposited data

Results flagged for a closer look

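For 3 genes the change against the shared shControl arrays differed between the knockdowns in the direct limma comparison. Of all genes, 16.3% were called lower and 12.7% higher in that comparison. Among genes above the median level, where all 9 lie, 27.3% were called lower and 20.8% higher. The 2 lower and 1 higher of the 9 are no larger than these last shares. Ccne1 was lower in shPhf5a than in shPaf1 by -0.58 log2 units (adjusted p = 0.0148), with all 3 shPhf5a arrays below all 3 shPaf1 arrays. Cdkn1b was lower by -0.46 (adjusted p = 0.00018) and Rb1 higher by 0.66 (adjusted p = 0.00269), again in 3 of 3 arrays against 3 of 3. The knockdown arrays did not overlap for Cdk4 either, which did not pass (adjusted p = 0.103). Of all genes, 21.3% lay wholly lower and 16.3% wholly higher in shPhf5a than in shPaf1. The Ccne1 call was lost in 3 of 18 alternatives, with only the 6 arrays compared (adjusted p = 0.0524), without shPhf5a replicate 3 (adjusted p = 0.0623) and without shPaf1 replicate 3 (adjusted p = 0.0524), and the calls of Cdkn1b and Rb1 were kept in all 18. For all 3 genes the difference was larger without shPhf5a replicate 2, the array with the most Phf5a left (-0.80, -0.51 and 0.82).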

How the results depend on the processing

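Over 18 alternatives, 458 of 486 values of single genes kept their direction and their side of the threshold, 15 lost the call, 8 gained it and 5 turned their sign. The turned signs were all in differences between the knockdowns that had not passed: Ccnd1 was at 0.042 without shPhf5a replicate 1 (range with 1 array left out -0.23 to 0.042), and Ccnd2 at 0.012 after quantile normalization and above 0 without shPhf5a replicate 1 or 3 or shPaf1 replicate 3 (range with 1 array left out -0.18 to 0.12). The number of the 9 genes lower in shPhf5a than in shPaf1 was 2, and became 5 with array weights, 1 with only the 6 arrays compared, and 1 to 6 when 1 array was left out. Against shControl the number of lower genes ran from 7 to 8 in shPhf5a and from 5 to 7 in shPaf1 when 1 array was left out, and Rb1 rose in every such fit. Genes called over the whole array ran from 7115 to 8817 in shPhf5a, from 6799 to 8646 in shPaf1 and from 5164 to 7284 between the knockdowns in those fits. Arrays that share a replicate number deviated together weakly at most. Of 9 same-number correlations of deviations across genes 1 exceeded 0.1 (from -0.06 to 0.11), and 5 of 9 arrays correlated best with their own number. Whether the replicate numbers mark pairs stays unclear. With the replicate number as a block, 8210, 7858 and 6255 genes were called in shPhf5a, in shPaf1 and between the knockdowns, and the counts of lower members stayed at 8, 7 and 2. Without detection calls, how far signal not specific to a gene compresses these changes is unknown.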
